A study of Mus musculus with 12 samples.

Results

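Macrophage and leukocyte markers were followed through 4 mouse germ cell fractions. The 9 genes C1qa, C1qb, Lyz1, Lyz2, Cd68, Cd14, Csf1r, Ctss and Cd74 were chosen by their symbol in the platform annotation, not by their signal, and are 9 of the 15964 genes that the arrays name. They were read by 14 probe sets that carry 1 of these symbols and by 1 further probe set listed for both Lyz1 and Lyz2. The fractions were spermatogonia of type A and of type B, spermatocytes in pachytene and spermatids of the round stage, and total RNA of each was put on 1 array of each of 3 Affymetrix designs (U74Av2, U74Bv2 and U74Cv2), 12 arrays in all. Strain, genotype, age and the way the cells were isolated are not given in the sources used here, and each array is described there as a single sample. Differences between fractions therefore carry neither an error nor a p-value, and precision is limited by having 1 array of each kind.

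Macrophages are the most abundant leukocytes of the testis, where they lie between the tubules beside the Leydig cells and on the tubule wall near the spermatogonia. C1qa and C1qb encode chains of complement C1q, which binds immune complexes and dying cells, and the lysozymes Lyz1 and Lyz2 cleave bacterial cell walls. Cd68 is a heavily glycosylated lysosomal membrane protein and cathepsin S (Ctss) a lysosomal protease that trims the invariant chain Cd74, the chaperone of class II histocompatibility molecules. Cd14 is a co-receptor for bacterial lipopolysaccharide, and Csf1r is the receptor for colony stimulating factor 1, on which most macrophages depend. None of these genes is in the germ cell marker lists used below, and whether germ cells themselves express them was not tested.

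The sequences just upstream of the genes are shown because the lysozymes, whose probe sets are hard to tell apart, are alike upstream as well, and because a run of 6 letters recurs in other members. From a RefSeq table for build GRCm38.p6 the windows of 5 of the 9 members were used, C1qb, Lyz1, Lyz2, Cd68 and Ctss. Cd14, Csf1r and Cd74 were left out by a rule on their chromosome, and no window was used for C1qa. Each window holds the 250 bases before the start, written here from 5′ to 3′ on the strand of the gene. In the lysozymes the capitals mark the longest run that both windows share, the 50 bases directly before the start.
Lyz1, chr10:117292869-117293118, minus strand: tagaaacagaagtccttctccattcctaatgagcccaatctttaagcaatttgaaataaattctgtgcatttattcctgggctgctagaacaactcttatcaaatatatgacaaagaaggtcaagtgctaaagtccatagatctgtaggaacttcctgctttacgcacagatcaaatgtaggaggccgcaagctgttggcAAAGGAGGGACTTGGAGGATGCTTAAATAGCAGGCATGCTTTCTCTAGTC
Lyz2, chr10:117282273-117282522, minus strand: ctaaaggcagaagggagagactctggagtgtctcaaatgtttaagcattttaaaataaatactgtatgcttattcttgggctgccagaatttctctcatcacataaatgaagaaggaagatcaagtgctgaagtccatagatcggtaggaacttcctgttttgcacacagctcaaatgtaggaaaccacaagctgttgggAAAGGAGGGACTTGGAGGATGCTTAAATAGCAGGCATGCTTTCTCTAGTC

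The Lyz1 and Lyz2 windows were identical at 200 of 252 alignment columns (79.4%), while the 9 other pairs among the 5 windows were between 45.4% and 48.1% identical. In the remaining 3 windows the capitals mark GAGGAA, a core of the kind bound by ETS factors such as PU.1, the product of Spi1, a regulator of macrophage genes.
C1qb, chr4:136886201-136886450, minus strand: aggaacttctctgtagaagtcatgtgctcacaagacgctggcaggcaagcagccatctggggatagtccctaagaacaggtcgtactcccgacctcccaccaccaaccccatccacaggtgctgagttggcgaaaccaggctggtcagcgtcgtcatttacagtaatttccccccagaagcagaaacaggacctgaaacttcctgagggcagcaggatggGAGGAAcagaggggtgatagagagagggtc
Cd68, chr11:69666171-69666420, minus strand: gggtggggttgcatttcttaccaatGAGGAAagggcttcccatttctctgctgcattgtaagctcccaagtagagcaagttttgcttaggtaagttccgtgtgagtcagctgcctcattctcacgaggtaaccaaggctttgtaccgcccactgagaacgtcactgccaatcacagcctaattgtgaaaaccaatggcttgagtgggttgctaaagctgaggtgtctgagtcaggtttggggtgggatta
Ctss, chr3:95526536-95526785, plus strand: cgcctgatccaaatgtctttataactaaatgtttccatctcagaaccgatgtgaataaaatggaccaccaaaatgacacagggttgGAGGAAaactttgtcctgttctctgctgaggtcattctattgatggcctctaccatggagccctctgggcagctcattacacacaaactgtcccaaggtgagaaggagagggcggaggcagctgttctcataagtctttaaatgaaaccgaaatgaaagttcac
The run of 6 letters began 30 bases before the start in C1qb, 225 in Cd68 and 164 in Ctss. Both strands were searched (GAGGAA and TTCCTC), and 3 of the 5 member windows held it, against 23.3% of all 32851 windows of the table. The run is shown because it recurs in these windows, so the count is not a test of enrichment. Its shorter part GGAA also stands in the Lyz1 and Lyz2 windows, so the count does not say that these lack such a core. A match is a description of the letters and not a binding site, and binding was not measured in this series.

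The signals below are MAS5 signals, linear brightness values per probe set, after each array was scaled to the mean of its design. Signals under 0.4 of that mean, a floor of 50.03 on U74Av2 and on U74Cv2, were not read as levels. Where 1 of 2 fractions lay under this floor the ratio was taken against it and is worded "at least", and no ratio is given where both did. Each gene was represented by its probe set with the highest mean signal, which lay on U74Av2 for 8 members and on U74Cv2 for Lyz1. No negative control exceeded 32.7 on the U74Av2 arrays, while the highest on U74Cv2 reached 103.5, on the type B array. Array medians lay between 42.7 and 75.9 over the 12 arrays. Control probe sets present on all designs gave the technical spread, and the SD of their log2 ratio was 0.26 between type B and type A, 0.23 between pachytene and type B, and 0.44 between round spermatid and pachytene arrays. It comes from controls over the floor in both fractions, and it says nothing of dimmer signals or of differences between cell preparations.

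Germ cell markers gave a mixed check of the labels. All 6 measured spermatogonial markers were at least 2-fold lower in pachytene spermatocytes than in the type B fraction, 4 of 6 measured pachytene markers were at least 2-fold higher there, and 5 of 6 measured round spermatid markers were at least 2-fold higher in round spermatids than in pachytene spermatocytes. Of the pachytene markers, however, 2 of 6 were at least 2-fold higher in round spermatids than in pachytene spermatocytes and 0 lower, and Sycp1, of the synaptonemal complex, read 220.0 in pachytene spermatocytes, against 318.7 in type B and 367.5 in type A spermatogonia. Between the spermatogonia, 1 of 6 markers differed by at least 2-fold, Zbtb16 of undifferentiated spermatogonia, with 268.2 in type B and 670.4 in type A spermatogonia, and 0 of the 6 were higher by 2-fold or more in type B. Each fraction is bulk RNA, so that fewer macrophages and less RNA per macrophage cannot be told apart. The labels name no leukocyte fraction, and a fraction's own germ cells and any other cells in it were measured together.

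Macrophage marker signal was present at low level in the spermatogonial fractions, was highest in type B spermatogonia for 8 of the 9 genes, or 4 of 9 under spike-in scaling, and lay mostly under the floor in pachytene spermatocytes. Over the floor were 5 of 9 members in type A and 9 of 9 in type B spermatogonia, 2 of 9 in pachytene and 4 of 9 in round spermatid RNA. Of all 15964 genes 10960 and 11284 exceeded it in type A and type B spermatogonia, 10060 in pachytene and 10090 in round spermatid RNA. Cd14 and Csf1r exceeded the floor in all 4 fractions, and Cd74 was the 1 member that peaked elsewhere, in round spermatids. The 4 that were highest in type B spermatogonia under spike-in scaling too were C1qa, Lyz1, Lyz2 and Ctss. Of all 13003 genes over the floor in at least 1 fraction, 29.9% had their highest signal in type B spermatogonia, and 3.27% of 13068 genes did under spike-in scaling. The summed signal of the 9 members was 620.2 in type A and 1282 in type B spermatogonia, 408.4 in pachytene and 574.6 in round spermatid RNA. The median member stood at percentile 56.4 of its array in type A and 66.1 in type B spermatogonia, 41.3 in pachytene and 53.1 in round spermatid RNA.

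**Figure D1:**
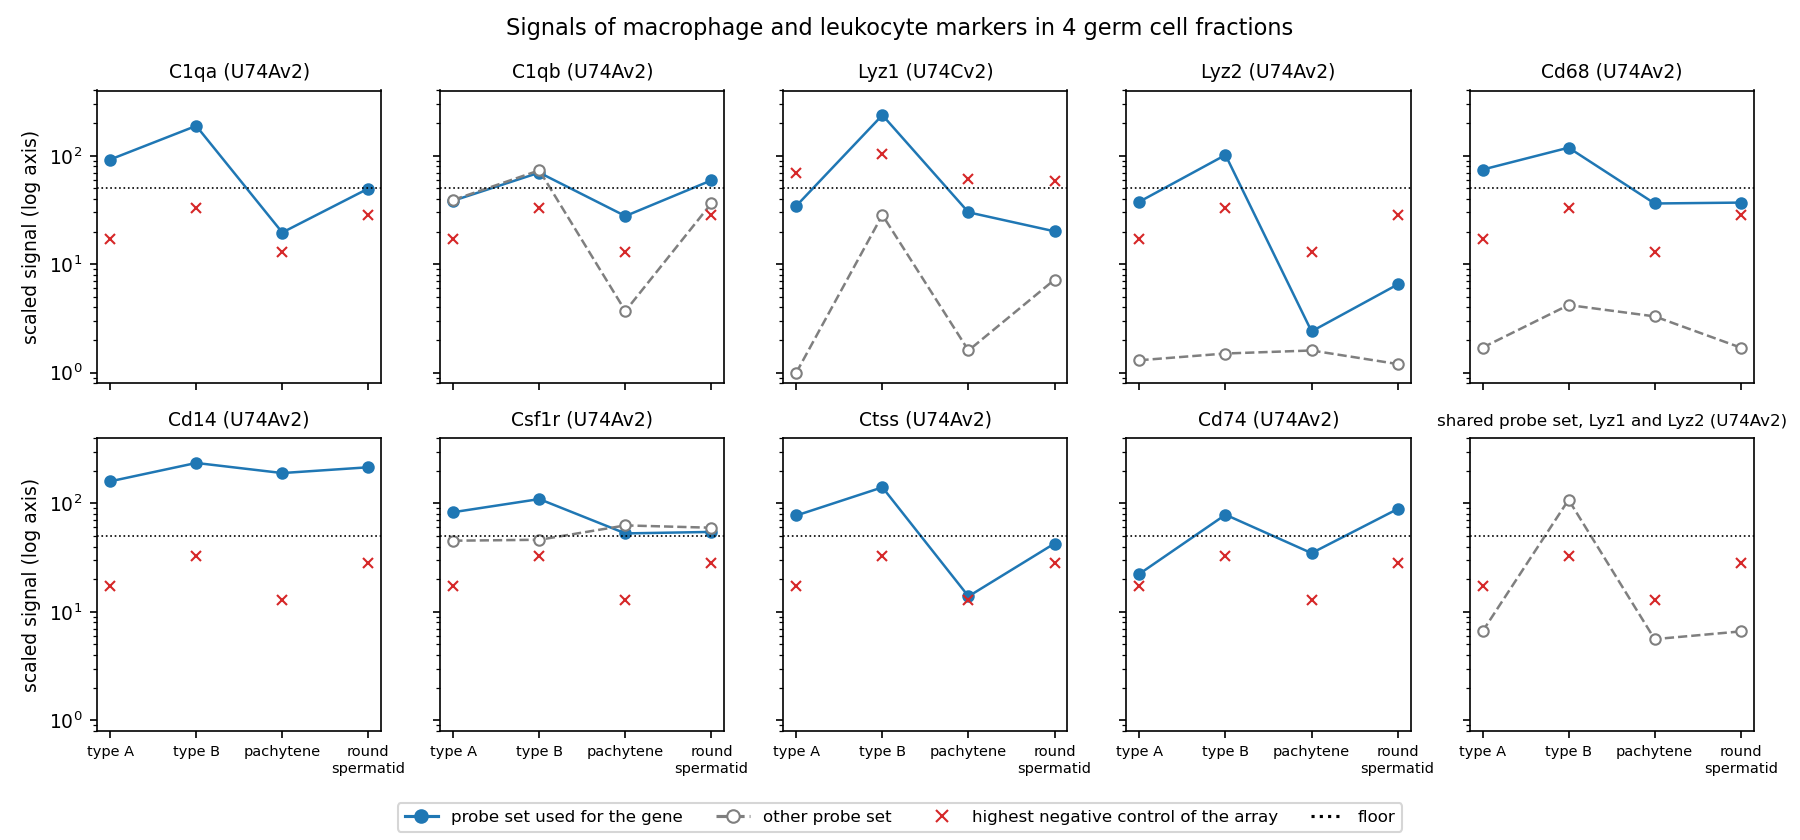
Scaled signal of each of the 9 markers (log axis, MAS5 signal units) in the 4 fractions, 1 point per array, filled for the probe set used and open for others, with a further panel for the probe set shared by Lyz1 and Lyz2, crosses at the highest negative control of each array and a dotted line at the floor of 50.03. The filled points peak in type B spermatogonia for 8 genes and in round spermatids for Cd74; under spike-in scaling 4 genes peak in type B spermatogonia, where 3.27% of all genes then do.

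The complement chain C1qa read 92.3 in type A and 188.7 in type B spermatogonia, 19.6 in pachytene and 49.9 in round spermatid RNA. The round spermatid value lay just under the floor, so only the spermatogonia gave a level. C1qa was 2.04-fold higher in type B than in type A spermatogonia and at least 3.77-fold lower in pachytene spermatocytes than in the type B fraction. C1qb, whose product joins that of C1qa in the same complex, read 38.5, 69.9, 27.8 and 59.4 in the same order of fractions. It exceeded the floor in type B spermatogonia and round spermatids only, at less than 2 floors in each. A further C1qb probe set read 39.1, 73.4, 3.7 and 36.5, over the floor in type B spermatogonia alone. Both C1qb probe sets thus placed the gene over the floor in type B spermatogonia and under it in type A, while they differed on round spermatids.

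Lyz1 had the widest contrast among the members. Its probe set on U74Cv2 read 34.5 in type A and 237.1 in type B spermatogonia, 30.1 in pachytene and 20.1 in round spermatid RNA. Only the type B signal exceeded the floor, and it was 2.29-fold the highest negative control of its array. Lyz1 was at least 4.74-fold higher in type B than in type A spermatogonia and at least 4.74-fold lower in pachytene spermatocytes than in the type B fraction. A second Lyz1 probe set stayed under the floor in all 4 fractions, with 28.4 in type B spermatogonia as its highest signal.

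Lyz2, the lysozyme of macrophages and other myeloid cells, read 37.7, 101.7, 2.4 and 6.5 in the same order. It was at least 2.03-fold higher in type B than in type A spermatogonia, and at least 2.03-fold lower in pachytene spermatocytes than in the type B fraction. The probe set listed for both lysozymes read 6.6, 108.0, 5.6 and 6.6, so it too exceeded the floor in type B spermatogonia alone. The other Lyz2 probe set read no more than 1.6 in any fraction. The Lyz1 probe set belongs to a class that Affymetrix marks by its name as sharing probes with similar sequences, so Lyz1 and Lyz2 cannot be firmly told apart here. Over both genes, 3 of 5 probe sets gave the same order, a level in type B spermatogonia and none over the floor elsewhere.

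Of the lysosomal members, Cd68 read 74.5 in type A and 118.8 in type B spermatogonia, 36.3 in pachytene and 37.0 in round spermatid RNA. Ctss read 77.4, 140.8, 13.9 and 42.7 in that order. Both genes exceeded the floor in the spermatogonia and lay under it in the later fractions. Cd68 was 1.59-fold and Ctss 1.82-fold higher in type B than in type A spermatogonia, and in pachytene spermatocytes Cd68 was at least 2.37-fold and Ctss at least 2.81-fold lower than in type B spermatogonia. The Cd68 probe set also belongs to the class with shared probes, and another Cd68 probe set read no more than 4.2 in any fraction.

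The receptors Cd14 and Csf1r followed the same order in the spermatogonia and differed later. Csf1r read 83.0 in type A and 109.7 in type B spermatogonia, 52.9 in pachytene and 54.6 in round spermatid RNA. It was 1.32-fold higher in type B than in type A spermatogonia and 2.07-fold lower in pachytene spermatocytes than in the type B fraction, with the later fractions just over the floor. A second Csf1r probe set went the other way, with 45.3, 46.2, 62.7 and 59.7. Cd14 read 159.8, 236.2, 190.6 and 215.6 and was over the floor throughout. Its signal was 1.48-fold higher in type B than in type A spermatogonia, 1.24-fold lower in pachytene spermatocytes than in the type B fraction, and 1.13-fold higher in round spermatids than in pachytene spermatocytes. The neighbours in its order, type B spermatogonia, round spermatids, pachytene spermatocytes and type A spermatogonia, lay close to each other, the first 3 of them within 0.31 on the log2 scale, and no replicate tells whether they differ.

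Cd74 stood apart from the other members in its order. It read 22.4 in type A and 78.7 in type B spermatogonia, 34.8 in pachytene and 88.9 in round spermatid RNA. The invariant chain was over the floor in type B spermatogonia and round spermatids only, at less than 2 floors in each. The C1qb probe set used was over the floor in the same fractions. No replicate tells whether Cd74 differed between them. With a common median and with quantile normalization, C1qb and Cd14 were not highest in type B spermatogonia either. Cd74 was at least 1.57-fold higher in type B than in type A spermatogonia. It was at least 1.57-fold lower in pachytene spermatocytes than in the type B fraction, and at least 1.78-fold higher in round spermatids than in pachytene spermatocytes.

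For type B over type A spermatogonia, the log2 ratios of all 9 members were over 0 (3 of them below 0 under spike-in scaling), from 0.40 for Csf1r to 2.24 for Lyz1, with a median of 0.67 against 0.01 over all 11951 measured genes. At least 2-fold higher were 3 of 9 members (C1qa, Lyz1 and Lyz2), against 3.92% of all genes, and 0 of 9 were at least 2-fold lower, against 3.94%. The ratios of C1qa and Lyz2, 1.03 and 1.02 on the log2 scale, lay just past the threshold, and Ctss at 0.86 just inside it. All 9 ratios exceeded the SD of 0.26 of the control probe sets, although 15.2% of pairs of probe sets for 1 gene disagreed in this ratio by over 2-fold. The ratios of C1qb, Lyz1, Lyz2 and Cd74 were bounds against the floor that entered through the type B signal alone, which sets their sign. The controls were over it in both fractions, so their SD does not measure the spread of dim signals.

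The scaling bears on this comparison. Spike-in controls read 1.76-fold higher on the type B than on the type A arrays. Scaling by them moved the median of all genes to -0.76 and that of the members to 0.083, with Cd68 at -0.15, Cd14 at -0.26 and Csf1r at -0.42, so that these 3 turned below 0 while Lyz1 stayed at 1.57. Relative to all genes the members' median was then 0.85 higher, against 0.66 higher with the scaling used throughout. Lyz1 was the only member at least 2-fold higher under spike-in scaling, under a common median and with a floor of 0.8 of the mean. Of all genes 0.39%, 2.48% and 2.03% were at least 2-fold higher, in that order. The arrays differed in a further value: the ratio of the 3′ to the 5′ probe set of Actb, a sign of RNA integrity, was 2.41 to 2.49 on the type B arrays and 2.10 to 2.23 on the type A arrays. For Gapdh this ratio was 0.97 to 1.11 on the type B arrays and 0.93 to 1.03 on the type A arrays, ranges that overlap. The part of RNA integrity in the result was not tested.

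**Figure D2:**
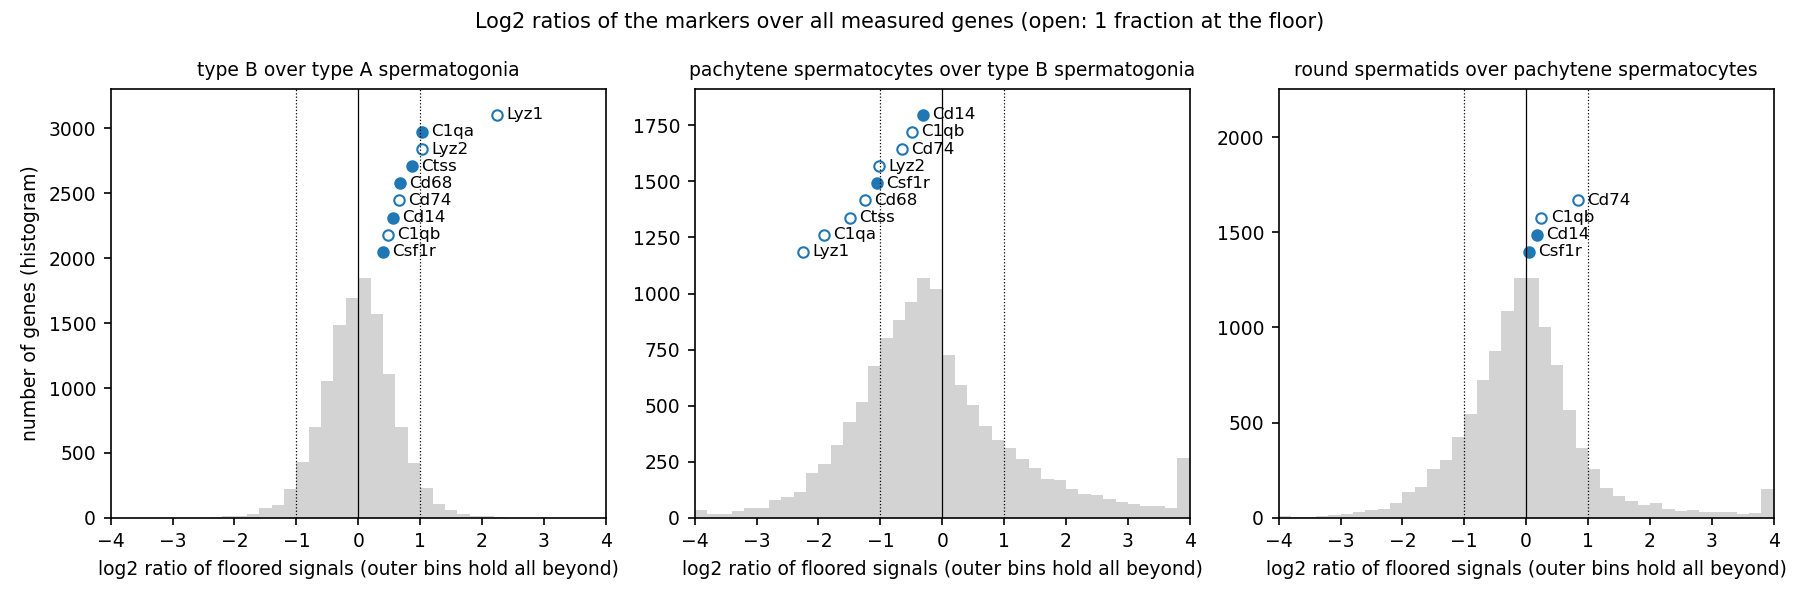
Log2 ratios of floored signals of the 9 markers (points, open where 1 fraction lay at the floor) above the histogram of all measured genes (grey, number of genes) for the 3 comparisons, with lines at 0 and at 2-fold, and with genes beyond 4 on the log2 scale counted in the outermost bins. The markers lie above 0 for type B over type A spermatogonia, where Cd68, Cd14 and Csf1r turn below 0 under spike-in scaling, and below 0 for pachytene spermatocytes over type B spermatogonia, where Cd14 turns above 0 under spike-in and common median scaling; 4 markers have a ratio for round spermatids over pachytene spermatocytes.

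For pachytene spermatocytes over type B spermatogonia, all 9 log2 ratios lay below 0, from -2.24 for Lyz1 to -0.31 for Cd14, where the ratio of Cd14 turned to 0.21 with a common median and to 0.47 with spike-in scaling. Only Cd14 and Csf1r were over the floor in both fractions. Every other ratio was a bound that entered through the type B signal alone, which sets its sign. Probe set pairs for 1 gene disagreed by over 2-fold in 32.4% of cases here. The members' median was -1.05, against -0.28 over all 12281 measured genes. At least 2-fold lower were 6 of 9 members (C1qa, Lyz1, Lyz2, Cd68, Csf1r and Ctss), against 23.2% of all genes, and 0 of 9 were at least 2-fold higher, against 17.1%. C1qb and Cd74 were at least 1.40-fold and at least 1.57-fold lower, and their signals in type B spermatogonia left no room for a ratio of 2 above the floor. Csf1r at -1.05 and Lyz2 at -1.02 lay just past the threshold. With a floor of 0.8 of the mean, 1 of 7 measured members passed, Lyz1, a share near the 18.1% of all genes. The members' median was then -0.31, against -0.20 for all genes. With spike-in scaling 2 of 8 measured members passed, C1qa and Lyz1, against 10.1% of all genes. The members' median of -0.61 then stood against 0.35 for all genes. The Actb 3′ to 5′ ratio was 1.48 to 1.77 on the pachytene arrays, against 2.41 to 2.49 on the type B arrays. The Gapdh ratio was 0.69 to 0.80 on the pachytene and 0.97 to 1.11 on the type B arrays. The part of these differences was not tested.

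For round spermatids over pachytene spermatocytes, 4 of 9 members gave a ratio, and a member under the floor in pachytene spermatocytes could enter only by being higher in round spermatids. Cd74 was at 0.83, C1qb at 0.25, Cd14 at 0.18 and Csf1r at 0.05 on the log2 scale, of which Cd14 turned to -0.08 and Csf1r to -0.22 with spike-in scaling. None of the 4 was at least 2-fold higher or lower, against 10.5% and 13.7% of all 11203 measured genes, and Cd74 alone exceeded the control SD of 0.44. The ratios of Cd74 and C1qb were bounds against the floor, and the SD of controls over it does not measure their spread. The other 5 members, C1qa, Lyz1, Lyz2, Cd68 and Ctss, were under the floor in both fractions.

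Broader leukocyte lists were read in the same way. Of 77 genes in 7 lists, 72 were on the arrays, and 34 of these were under the floor in all 4 fractions. Of all 15964 genes 2961 were. Of the 72, 24 exceeded the floor in type A and 31 in type B spermatogonia, 17 in pachytene and 19 in round spermatid RNA. Of the 38 genes over the floor anywhere, 3 were highest in type A and 21 in type B spermatogonia, 5 in pachytene and 9 in round spermatid RNA. The shares over all 13003 such genes were 28.7%, 29.9%, 20.1% and 21.3% in that order. For type B over type A spermatogonia 3 of the 32 genes with a ratio were at least 2-fold higher (Ccl2, Apoe and Rac2) and 0 lower. Of all genes 3.92% were higher and 3.94% lower. With spike-in scaling 0 genes of any of these lists were at least 2-fold higher, against 0.39% of all genes. Then 1 gene was lower in the T and NK cell list and 1 in the granulocyte and mast cell list, against 33.8% of all genes. For pachytene spermatocytes over type B spermatogonia 0 of 35 were higher, against 17.1% of all genes. The 8 that were lower are a share near the 23.2% of all genes and so no result about these lists. A gene enters these counts only through its higher fraction, so they describe the genes that passed the floor. With spike-in scaling the median log2 ratio for type B over type A spermatogonia was -0.26 for the secreted and intracellular macrophage genes and -0.19 for the pan-leukocyte genes, against -0.76 for all genes. Several defining leukocyte genes gave no level. Ptprc, the common leukocyte antigen, read at most 6.70 in any fraction, Adgre1, the F4/80 antigen of mouse macrophages, at most 14.1, the integrin Itgam at most 14.3 and Spi1 at most 37.0. The Fc receptor genes Fcer1g and Fcgr3 and the scavenger receptors Cd163 and Marco were under the floor as well. So were 8 of 13 pan-leukocyte genes and, of the genes on the arrays, 5 of 10 macrophage receptors and adaptors.

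Among secreted and intracellular macrophage products, 17 of 18 genes were on the arrays. For type B over type A spermatogonia 2 of 11 genes with a ratio were at least 2-fold higher and 0 lower. Of all genes 3.92% were higher and 3.94% lower. With spike-in scaling 0 of the 11 were higher and 0 lower, against 0.39% and 33.8% of all genes. For pachytene spermatocytes over type B spermatogonia 0 of 11 were higher and 6 lower, against 17.1% and 23.2% of all genes. Under spike-in and under common median scaling 1 was higher and 1 lower there. The shares of all genes were then 29.0% and 10.1% with spike-in, and 25.5% and 12.5% with common median scaling. C1qc, the third chain of C1q, read 134.8 and 222.0 in type A and type B spermatogonia, 21.2 in pachytene and 46.9 in round spermatid RNA. It was 1.65-fold higher in type B than in type A spermatogonia, and the order was that of C1qa. In pachytene spermatocytes C1qc was at least 4.44-fold lower than in the type B fraction. A second C1qc probe set, on U74Cv2, read 71.1, 100.4, 61.9 and 173.1 and was highest in round spermatids. Under spike-in scaling this second probe set had the higher mean signal and represented the gene. Its log2 ratio of type B over type A spermatogonia was then -0.23. The chemokine Ccl2, which attracts monocytes, read 79.6, 226.4, 11.0 and 26.4 and was 2.84-fold higher in type B than in type A spermatogonia, and higher under spike-in scaling too, by 0.69 on the log2 scale. Apoe, a lipid carrier made by macrophages and by many other cells, read 369.9, 810.0, 7.9 and 70.3 on the probe set used, but 142.6, 130.7, 520.6 and 223.6 on another. The probe sets of Apoe therefore disagree in direction.

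Csf1, the ligand of Csf1r, read 105.4 in type A and 156.5 in type B spermatogonia, 67.2 in pachytene and 79.3 in round spermatid RNA. Ligand and receptor had the same order, with Csf1 1.48-fold and Csf1r 1.32-fold higher in type B than in type A spermatogonia, both turning below 0 on the log2 scale with spike-in scaling, at -0.25 and -0.42. Among the receptors and adaptors, Tyrobp, the adaptor of activating myeloid receptors, read 4.8, 79.5, 11.4 and 13.6 and so exceeded the floor in type B spermatogonia alone. Of the pan-leukocyte genes, Laptm5, a lysosomal membrane protein of blood cells, read 675.2, 818.9, 162.4 and 153.3. It was 5.04-fold lower in pachytene spermatocytes than in the type B fraction. This probe set, on U74Cv2, also belongs to the class with shared probes. Dimmer Laptm5 probe sets on U74Av2 read 111.0, 166.0, 86.2 and 81.1, and 61.3, 110.2, 27.6 and 33.2, also highest in type B spermatogonia. Rac2, a small GTPase of blood cells, read 71.2, 165.5, 159.7 and 145.8, thus was 2.32-fold higher in type B than in type A spermatogonia and differed by 1.04-fold between pachytene spermatocytes and type B spermatogonia.

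A few listed genes differed from most members in all or part of their order. Aif1, a calcium-binding protein used as a macrophage marker, read 9.4, 10.2, 30.3 and 1324 and was at least 26.5-fold higher in round spermatids than in pachytene spermatocytes. Mpeg1 read 120.5, 154.9, 121.1 and 58.1, highest in type B spermatogonia, as most members, and lowest in round spermatids. Cx3cr1 read 220.8, 281.6, 231.9 and 47.1, also highest in type B spermatogonia, with the last under the floor. Its second probe set read 75.8, 128.3, 140.1 and 148.4 and was highest in round spermatids. Kit, which sits in the granulocyte and mast cell list but is also a spermatogonial gene, read 201.9 in type B spermatogonia and 384.8 in type A spermatogonia. The T and NK cell list had 3 of 8 genes over the floor anywhere and the B cell list 4 of 5. Neither list had a gene over 2 floors in the spermatogonia, so that no 2-fold difference between these could be seen. Of the granulocyte and mast cell genes 9 of 12 were under the floor throughout, the neutrophil genes S100a8, S100a9 and Mpo among them.

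**Figure D3:**
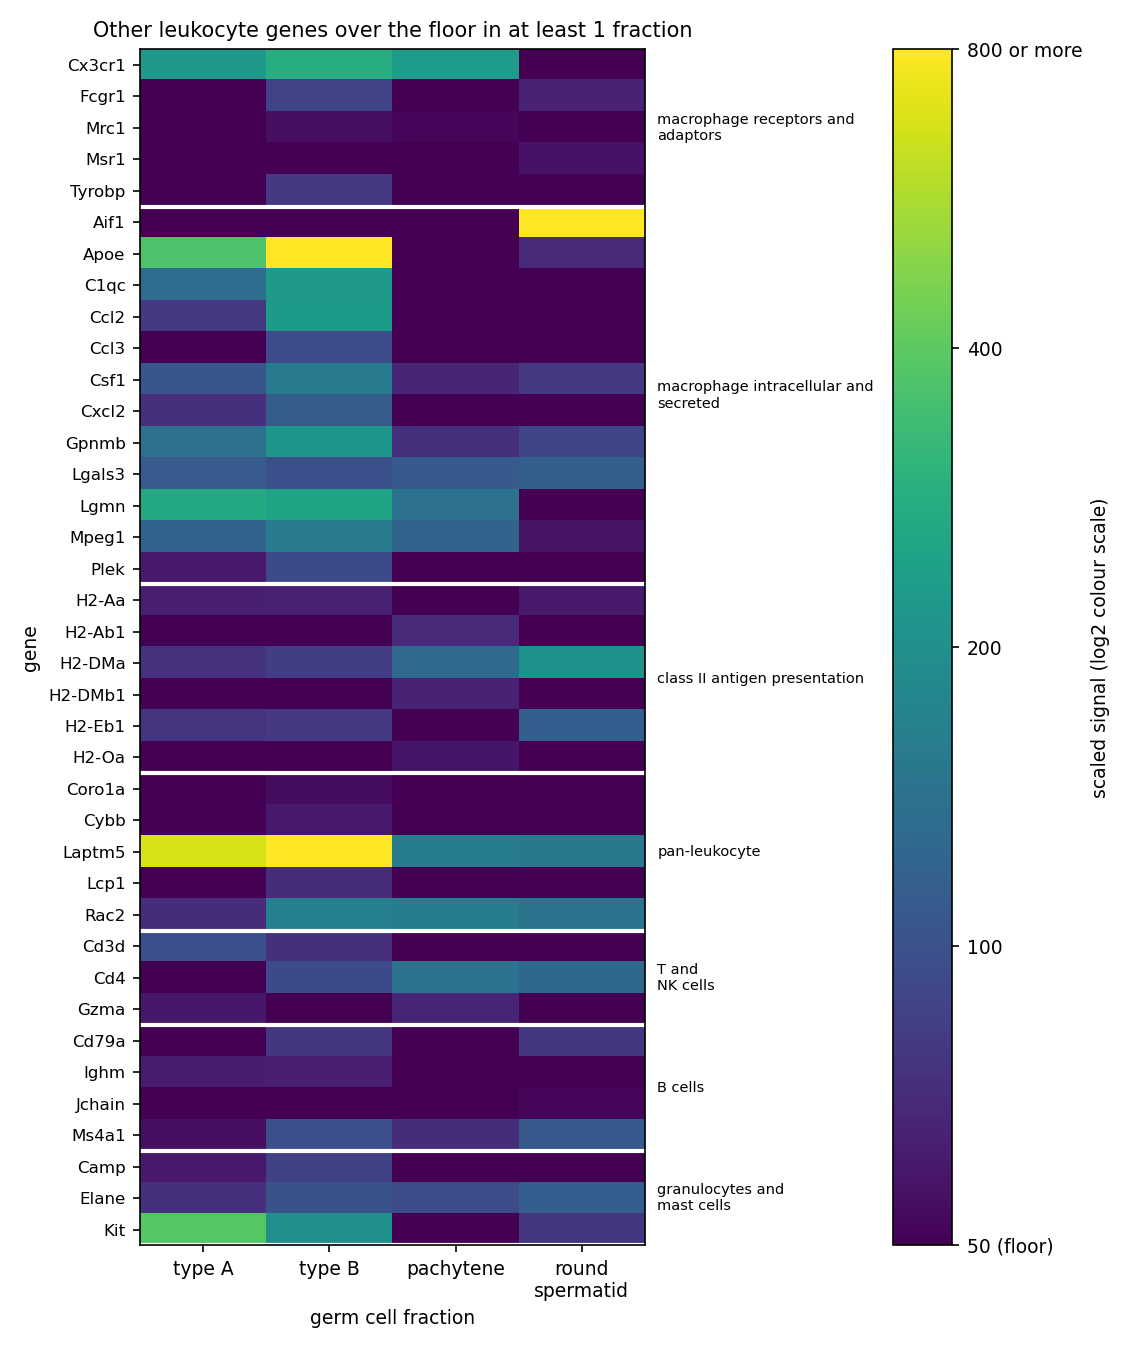
Log2 of the floored signals (colour scale) of the genes of the leukocyte lists that exceeded the floor in at least 1 of the 4 fractions, 1 row per gene and 1 column per fraction. Of these 38 genes 21 are highest in type B spermatogonia and 9 in round spermatids, where Aif1 reads 1324. Of all 13003 genes over the floor anywhere, 29.9% are highest in type B spermatogonia and 21.3% in round spermatids.

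Cd74 works with class II molecules, whose genes were mostly near the floor. For type B over type A spermatogonia 3 of the 7 class II genes gave a ratio, and with none over 2 floors no 2-fold difference could be seen. For pachytene spermatocytes over type B spermatogonia 6 gave one, with 0 at least 2-fold changed and a median of 0.30 on the log2 scale. Of all genes 17.1% were higher and 23.2% lower. H2-DMa, which helps load peptides, read 74.3 and 84.0 in type A and type B spermatogonia, 128.3 in pachytene and 208.2 in round spermatid RNA. H2-Eb1, a class II beta chain, read 75.7, 79.1, 17.1 and 113.9 and, as Cd74, was highest in round spermatids, at least 2.28-fold higher than in pachytene spermatocytes. A second H2-Eb1 probe set read 13.6 in round spermatids, under the floor, and 15.6 in pachytene spermatocytes. The class II activator Ciita read at most 45.5.

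Cd68 and Ctss are lysosomal, and lysosomal genes that many cell types use were set beside them. Of 9 such genes, 0 were at least 2-fold changed in type B over type A spermatogonia, against 3.92% of all genes higher and 3.94% lower. Their median log2 ratio was 0.11 (-0.71 with spike-in and -0.06 with common median scaling). That of all genes was 0.01 (-0.76 with spike-in and -0.10 with common median scaling). For pachytene spermatocytes over type B spermatogonia the median was -1.86 and 6 of the 9 were lower by 2-fold or more. Of all measured genes 23.2% were. Ctsb, a cysteine protease related to Ctss, read 570.7, 664.2, 152.7 and 136.2 in the 4 fractions in stage order and was 4.35-fold lower in pachytene spermatocytes than in the type B fraction. Ctsl, abundant in Sertoli cells, read 2050, 1698, 1003 and 150.4. Lamp1, a lysosomal membrane protein, had the other direction, with 1681, 1460, 2429 and 2315.

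Myoid and fibroblast genes were set beside the members as well. Of 10 myoid and fibroblast genes, 6 were higher by 2-fold or more in type B than in type A spermatogonia. In pachytene spermatocytes 10 were at least 2-fold lower than in the type B fraction. The shares of all genes were 3.92% and 23.2%. Scaled by the spike-ins, 1 and 9 genes passed, against 0.39% and 10.1% of all genes, and the medians were 0.28 and -3.11 on the log2 scale. Their summed signal was 6789 in type A and 13232 in type B spermatogonia, 577.5 in pachytene and 704.6 in round spermatid RNA. Decorin (Dcn), a matrix proteoglycan of connective tissue, read 2782 in type B and 877.8 in type A spermatogonia. The haemoglobin chain Hba-a1 read 866.3 in type B and 308.7 in type A spermatogonia (2.81-fold), while Alas2, the other erythroid gene on the arrays, was under the floor in both and read 59.1 in pachytene spermatocytes. Endothelial genes summed to 339.4, 544.2, 169.4 and 184.7 in stage order, with a median ratio of type B over type A spermatogonia of 0.43 on the log2 scale that turned to -0.32 with spike-in scaling. Their part in the result, and that of the myoid and fibroblast genes, was not tested.

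Sertoli genes had another order than the members. Leydig genes were, as the members, higher in type B than in type A spermatogonia with the scaling used throughout. The 10 Sertoli genes summed to 5927 in type A and 4313 in type B spermatogonia, 2834 in pachytene and 960.2 in round spermatid RNA, with 0 at least 2-fold higher and 2 lower in type B than in type A spermatogonia. Of all genes 3.92% were higher and 3.94% lower. With spike-in scaling 5 of 9 measured Sertoli genes were at least 2-fold lower in type B spermatogonia, against 33.8% of all genes. The 6 Leydig genes on the arrays summed to 433.8, 717.7, 702.0 and 209.3, with members that differed among themselves. For type B over type A spermatogonia all 5 with a ratio were over 0, with a median of 0.69 on the log2 scale. Of these 1 was at least 2-fold higher and 0 lower, against 3.92% and 3.94% of all genes. With spike-in scaling 0 were higher by 2-fold or more, against 0.39% of all genes. The Leydig median was then -0.03, against -0.76 for all genes. The steroidogenic enzymes Cyp17a1 and Cyp11a1 read 366.5 and 134.3 in pachytene spermatocytes, against 254.1 and 66.8 in type B spermatogonia, and made up most of the pachytene sum. Hsd3b1, Star and Insl3 read 37.2, 98.5 and 26.4 in pachytene spermatocytes, against 141.6, 158.8 and 59.6 in type B spermatogonia.

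**Figure D4:**
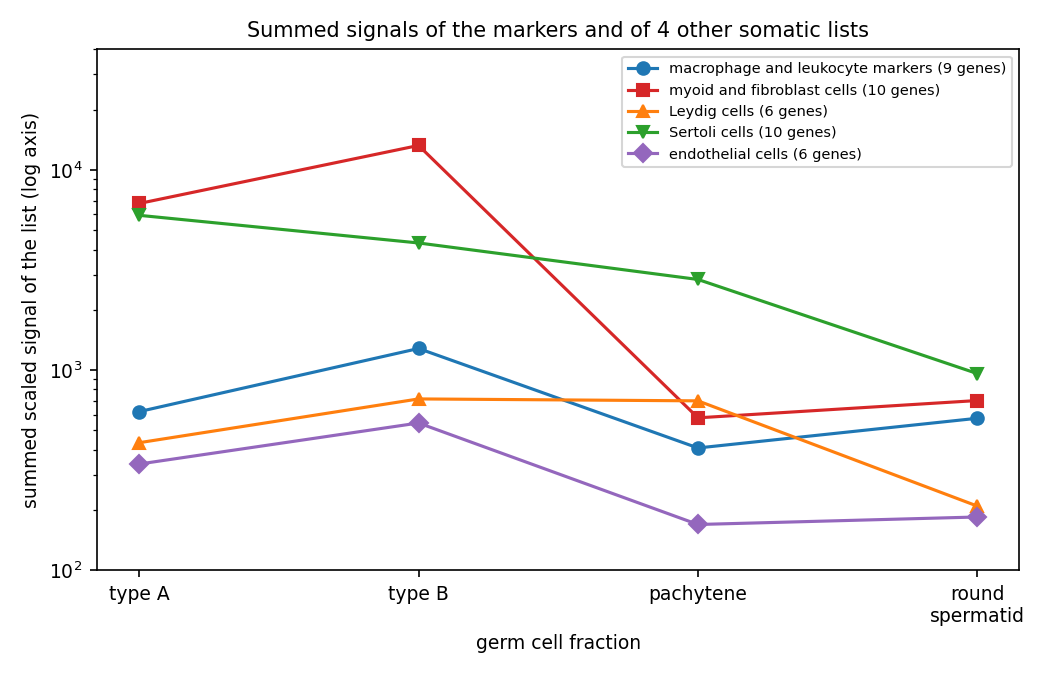
Summed scaled signal (log axis, MAS5 signal units) of the 9 markers and of the myoid and fibroblast, Leydig, Sertoli and endothelial lists in the 4 fractions, scaled to the mean of each design. With this scaling the markers, the myoid and fibroblast genes, the endothelial genes and the Leydig genes are highest in type B spermatogonia. All of these but the Leydig genes drop in pachytene spermatocytes, where the Leydig genes stay near 702.0. The Sertoli genes are highest in type A spermatogonia.

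The members also varied among themselves in shape. The 7 members over 2 floors in at least 1 fraction (C1qa, Lyz1, Lyz2, Cd68, Cd14, Csf1r and Ctss) were averaged as log2 profiles centred on their own mean, and every gene was placed by its Euclidean distance from that average over the 4 fractions. Cd68 lay nearest among them at 0.23 and Ctss next at 0.25, while C1qa at 0.58, Cd14 at 0.94 and Lyz1 at 0.95 lay farther. Among 10695 candidates outside the members, the 10 nearest were Zfp983, Gm38457, Slc1a4, Pygm, Slc17a1, Dcps, C130026I21Rik, Ppp1r3g, 5730507C01Rik and Crip1, at distances of 0.040 to 0.095. None of these 10 is in a leukocyte list, and 58 candidates lay nearer to the average than Cd68 did. With 4 fractions, many genes have this profile, which is a description of likeness and not of shared function.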

How the data were processed

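Target was made by one-cycle labelling, per the labels. The authors deposited linear intensity values, 1 signal for each probe set, and the submitters' processing notes name MAS5. Its settings are not given in the sources used here. Detection calls were not used. Arrays of a design were brought to 1 mean, the geometric mean of their trimmed means (2% off each end), signals under 0.4 of it were raised to that floor, and log2 was taken. Ratios stayed within a design. The platform annotation gave 1 symbol to 29131 of 36701 probe sets that are no controls, several to 724 and none to 6846, and 29044 were updated through the Entrez identifier to a RefSeq table of GRCm38.p6. The build behind the arrays is not stated, and no gene coordinates were taken from it.

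The 9 members, the 16 further lists and the thresholds were chosen with earlier results of these data known. Named genes were all members, list genes over 2 floors with the largest ratios, and the 10 genes nearest the members' average profile. Genes under the floor, C1qc, Kit, H2-Eb1, Aif1, Alas2, Sycp1, Insl3 and the genes with other orders were named after their values were seen, as were the second probe sets of genes. No test was possible with single arrays. Scaling, floor, probe set rule and design were varied. The ratio script was tested on simulated data. Python 3.11.15, numpy 2.4.6, pandas 2.3.3, scipy 1.17.1, matplotlib 3.10.9 and biopython 1.88 were used, the last for the global alignment of upstream windows.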

Additional observations from a re-analysis of the deposited data

How the results depend on the processing

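No paired analysis was possible because there is 1 array per cell type and design, and for the same reason no replicate could be left out. For type B over type A spermatogonia, the count of members at least 2-fold higher was 3, and 1 with a common median, 1 with spike-in scaling and 1 with a floor of 0.8 of the mean. The shares of all genes were 3.92%, 2.48%, 0.39% and 2.03% in that order. The members' median log2 ratio of 0.67 was 0.083 with spike-in scaling. For pachytene spermatocytes over type B spermatogonia, the count at least 2-fold lower was 6, and 3 with a common median, 2 with spike-in scaling, 1 with a floor of 0.8 and 3 with the mean over probe sets. The shares of all genes were 23.2%, 12.5%, 10.1%, 18.1% and 15.3% in that order. The members' median of -1.05 was -0.72 with a common median, -0.61 with spike-in scaling, -0.79 with quantile normalization, -1.71 with a floor of 0.2, -0.31 with a floor of 0.8 and -0.62 with the mean over probe sets. For round spermatids over pachytene spermatocytes, the count at least 2-fold higher was 0, and 1 with a common median, 1 with quantile normalization and 2 with a floor of 0.2. Members with a ratio were 4, 5, 6 and 8 in that order, and the shares of all genes were 10.5%, 10.9%, 9.96% and 12.1%. The cause of these shifts was not tested, other than that a lower floor lengthens and a higher floor shortens every bound. The count of members highest in type B spermatogonia, 8, was 4 with spike-in scaling (C1qa, Lyz1, Lyz2 and Ctss) and 6 with a common median and with quantile normalization, where 29.95% of all genes were highest there with the scaling used throughout, 3.27% with spike-in scaling, 16.61% with a common median and 25.68% with quantile normalization. These counts, and the other gene lists under each scaling, were added after the data were seen. Signal over background limits C1qb and Cd74, which stayed under 2 floors in every fraction.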
